A study of Mus musculus with 8 samples.

Results

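The 10 genes described here encode the contractile apparatus of smooth muscle or close relatives of it, and were followed in sorted muscle satellite cells (SCs) of control and exercise mice. They were taken by name from a table of 52636 genes. Of the 10, 8 were added by name as parts or relatives of the same apparatus (Myl6, Myl9, Acta2, Actg2, Cald1, Cnn1, Tagln and Tagln2), with earlier results of these data known, while Myh11 and Mylk were chosen by their FPKM in these same libraries, where they moved in opposite directions. The values of Myh11 and Mylk are therefore given as a description, with no test.

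In smooth muscle, a rise in calcium activates the myosin light chain kinase encoded by Mylk, which phosphorylates the regulatory light chain of myosin and so allows the myosin heavy chain encoded by Myh11 to pull on actin filaments. The essential light chain encoded by Myl6 stabilises the same motor, and the actin filament carries the binding proteins caldesmon, calponin and transgelin. In skeletal muscle these proteins are best known from the smooth muscle cells and pericytes around vessels, together called mural cells, whereas Myl6, Cald1 and Tagln2 are made by many cell types.

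Male C57B/6J mice, 10 weeks old by the study's methods, were either sedentary (control) or trained on a treadmill (exercise). Training lasted 4 weeks, with 4 sessions of 30 min a week at 12 m/min. Each group has 4 libraries, and each library was made from about 800 SCs of digested tibialis anterior muscle, sorted as CD45-, CD11b-, CD31-, Sca1-, CD34+ and α7-integrin+ cells and amplified with a kit for single cells. A caption of the study counts mice as the replicates of these data, but the labels tie no library to an animal, so the p-values below measure the spread between the libraries as labelled. The p-values, SE and intervals of the fit and the permutation tests treat the 4 libraries of a group as independent, which the labels do not establish. Values are FPKM, reads divided by gene length and by a library size, and the reads behind each value could be recovered. In bulk libraries, fewer cells of a type and less RNA per cell cannot be told apart.

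The libraries differed in ways that bear on all values below. Control libraries held 2339966 to 3013354 reads on genes and exercise libraries 1011737 to 1200221, and the numbers of genes with reads were 5169 to 7307 and 2348 to 3289. Reads of mitochondrial transcripts made up 50.2% of exercise 3 and 68.7% of exercise 4, but 2.09% to 15.3% of the other libraries. In exercise 4 the library size behind FPKM was 0.249 of its reads, against 0.924 to 1.58 in the others, so a read there was worth more FPKM. Exercise 1 and 2 resembled each other far more than any other pair, with a chi-square per degree of freedom of 2.88, against 56.4 for the next pair. Of 139 genes with at least 50 reads in exercise 1 and none in exercise 4, the median share of reads in exercise 3 was 0.299 of that in exercise 1, and 142 genes seen in exercise 4 but not 1 had in exercise 3 0.677 of their exercise 4 share. In control 4, 345 genes seen in control 1 but not in control 3 had 0.281 of their control 1 share, and 658 genes of the opposite kind had 0.714 of their control 3 share. Whether the libraries of a group are independent of each other was not tested. Across all 4328 genes tested, the median log2 fold change (exercise minus control) was -1.42. Among cell type markers, 12 of the 16 genes of the SC list had reads in at least 1 library. The other 4 (Pax7, Itga7, Calcr and Cdh15) had no read in any library. Genes that most cells use were listed at 0 too, with no read of Polr2b, an RNA polymerase subunit gene, in all 8 libraries, and none of Gapdh in exercise 3 and 4. A count of 0 is thus no proof that a gene was off, and the limits given for counts of 0 cover counting error only.

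Of the 10 genes, 7 had a read in at least 1 library and 3 (Tagln, Cnn1 and Actg2) had none. The 5 whose mean level reached 1 FPKM (Myh11, Myl6, Acta2, Cald1 and Tagln2) entered the fit across all genes, while Mylk and Myl9 lay below that limit, at means of 0.550 and 0.0627 FPKM. Of the 4 tested genes that were added by name, 1 passed an adjusted p of 0.05 (Tagln2, lower in exercise) and 3 did not. Over all genes tested, 8.78% passed the same threshold as higher and 26.8% as lower in exercise, so 1 of 4 lower is close to the share of all genes. These shares stand for 380 and 1161 genes, which became 566 and 375 with quantile normalization. In FPKM the groups did not overlap for Tagln2 and overlapped for the other 3, and 31.6% of all genes tested had groups that did not overlap.

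**Figure D1:**
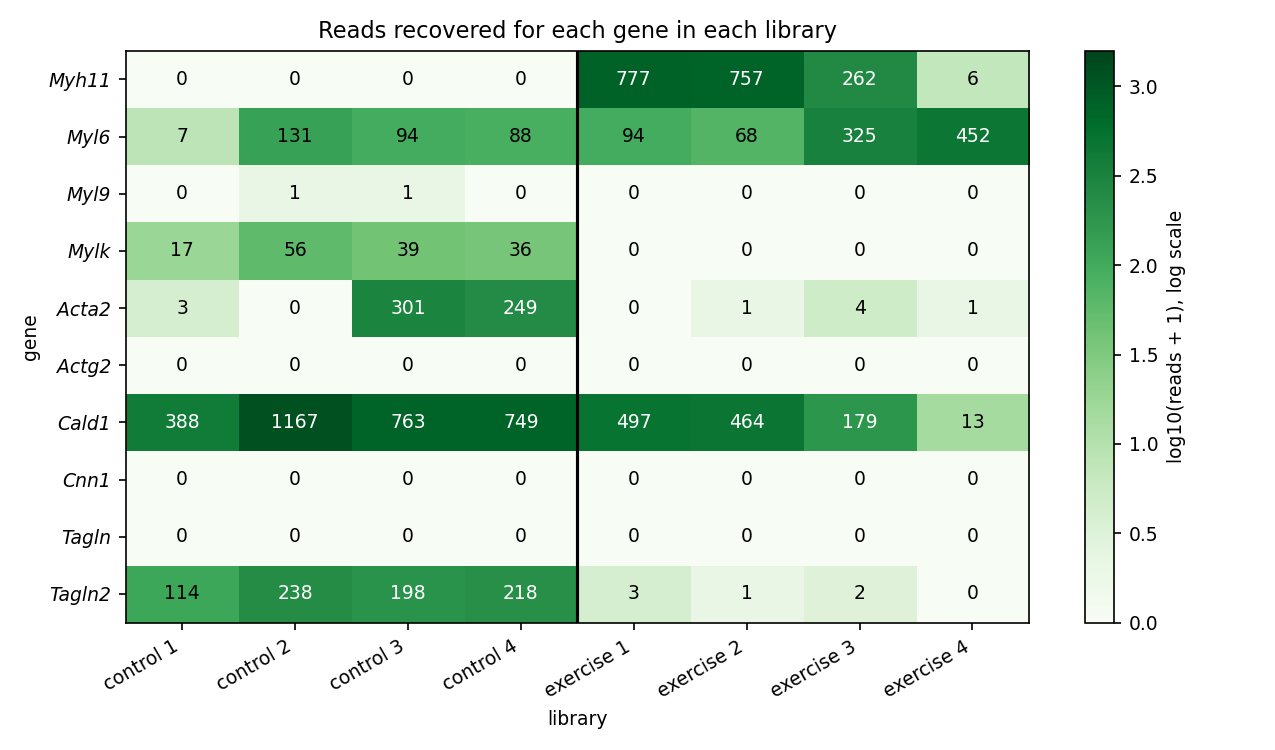
Reads recovered for each of the 10 genes (rows) in each library (columns), with the number of reads printed in each cell and the shade giving log10(reads + 1). Myh11 has reads in exercise libraries alone and Mylk in control libraries alone, Tagln2 has 114 to 238 reads in control libraries and 0 to 3 in exercise libraries, and Tagln, Cnn1 and Actg2 have none.

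Among the motor genes, Myh11 (chr16:14194527-14291408, minus strand, mm10), the smooth muscle myosin heavy chain, had no read in any control library. The exercise libraries 1 to 4 held 70.1, 71.5, 35.6 and 3.14 FPKM, from 777, 757, 262 and 6 reads. Every exercise library was thus above every control library, and exercise 4 was far below the other exercise libraries. The exercise mean of 45.1 FPKM ± 32.5 (SD, n = 4) was at least 314-fold higher than the control libraries allow by counting error, taking a count of 0 to allow up to 3 reads in each library (a mean of 0.144 FPKM). Leaving out any 1 library, this bound ran from 253-fold to 411-fold, the latter without exercise 4. As a share of all reads, Myh11 took 734, 748, 218 and 5.19 RPM (reads per 1000000 of the library) in the exercise libraries, so the share in exercise 3 was 0.297 of that in exercise 1, while exercise 2 was at 1.02 of it. The ratio of 0.297 lies near the 0.299 found for genes with reads in exercise 1 and none in exercise 4.

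The genes Ubash3b, Sin3b and Sspn followed the pattern of Myh11 most closely over the 8 libraries, by the root mean square difference of log2(FPKM + 1) after each gene was centred on its own mean. Ubash3b, a phosphatase gene, differed from Myh11 by 0.103, and was at 0 in all control libraries and at 66.0, 66.6, 28.9 and 3.32 FPKM in exercise 1 to 4. Sin3b, a scaffold of histone deacetylase complexes, differed by 0.172 and fell to 7.08 FPKM in exercise 4. Sspn, which encodes sarcospan of the dystrophin-glycoprotein complex, differed by 0.173 and was at 3.47 FPKM in exercise 4. All 3 were, like Myh11, lowest in exercise 4 among the exercise libraries, which follows from choosing them by their pattern.

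Myl6 (chr10:128490860-128494145, minus strand), the essential light chain shared by smooth muscle and non-muscle myosins, was found in every library. Its level was 0.958, 13.4, 7.56 and 6.93 FPKM in control 1 to 4, and 17.6, 13.4, 92.0 and 492 FPKM in exercise 1 to 4. The groups overlapped by a single pair, since exercise 2 (13.37 FPKM) lay just below control 2 (13.42 FPKM), and exercise 4 carried most of the exercise sum. The means were 7.22 FPKM ± 5.10 and 154 FPKM ± 228 (SD, n = 4), a 21.3-fold ratio of means that rested on exercise 4. Without exercise 4 the ratio was 5.68-fold, and over the pooled reads it was 7.17-fold. On the log2(FPKM + 1) scale the difference was 3.16 (SE 1.20, 95% interval 0.49 to 5.84), with an adjusted p of 0.0607 in limma with Benjamini-Hochberg adjustment and an exact two-sided permutation p of 0.0571, neither past 0.05. Without exercise 4 the difference was 2.14. As a share of reads, Myl6 took 2.99, 49.2, 31.2 and 31.5 RPM in control 1 to 4 and 88.8, 67.2, 271 and 391 in exercise 1 to 4. On this scale the groups did not overlap. The share of all genes without overlap on this scale was not computed, so the lack of overlap is given as a description. With libraries scaled to their read totals, an alternative chosen after seeing the data, the adjusted p was 0.0484 in limma, with a difference of 2.70. With quantile normalization the difference was 4.10 and passed (adjusted p = 0.0179 in limma). The exact two-sided permutation p was 0.0286 without exercise 2 and with exercise 1 and 2 averaged, and 0.0571 to 0.143 with any 1 of the other libraries left out. With array quality weights the limma difference was 0.99 and did not pass (adjusted p = 0.190 in limma). The 2 libraries with the highest Myl6 were also the 2 with the highest mitochondrial share, and the part of that share in the level of Myl6 was not tested.

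Myl9 (chr2:156775420-156781658, plus strand), the regulatory light chain that myosin light chain kinase phosphorylates, had 1 read in control 2 and 1 in control 3, and none in the other 6 libraries. A count of 0 allows up to 0.648 to 1.13 FPKM in the control libraries and up to 8.96 FPKM in exercise 4. No difference in Myl9 was detectable at this depth (exact two-sided permutation p = 0.429). With reads in control 2 and control 3 alone, that test could give no smaller p, so it cannot decide.

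Mylk (chr16:34745210-35002420, plus strand), the kinase that switches the smooth muscle motor on, went the other way from Myh11. Control 1 to 4 were at 0.730, 1.80, 0.984 and 0.889 FPKM, from 17, 56, 39 and 36 reads, and no exercise library held a read. All control libraries were low, at a mean of 1.10 FPKM ± 0.478 (SD, n = 4), or 13.7 RPM over the group. Against the 3 reads that a count of 0 allows in each exercise library (a mean of 0.413 FPKM), Mylk was at least 2.66-fold lower in exercise by counting error. This bound rested on exercise 4, where 0 reads allow up to 1.02 FPKM, above the levels of control 1, 3 and 4. Without exercise 4 the bound was 5.26-fold, and without control 2 it was 2.1-fold. Of the 3 antisense genes that overlap Mylk in the GENCODE M21 annotation, 1 was in the table and had no read.

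The genes nearest to Mylk in pattern were Rpl12, a cytosolic ribosomal protein gene, at a root mean square difference of 0.168, Ldha, a lactate dehydrogenase subunit gene, at 0.222, and Fosl2, an AP-1 transcription factor gene, at 0.262. Unlike Mylk, each of them had reads in every library. Rpl12 was at 11.4 to 15.6 FPKM in control libraries and at 5.57 to 6.75 in exercise libraries, and Fosl2 at 1.24 to 3.51 and 0.186 to 0.927.

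**Figure D2:**
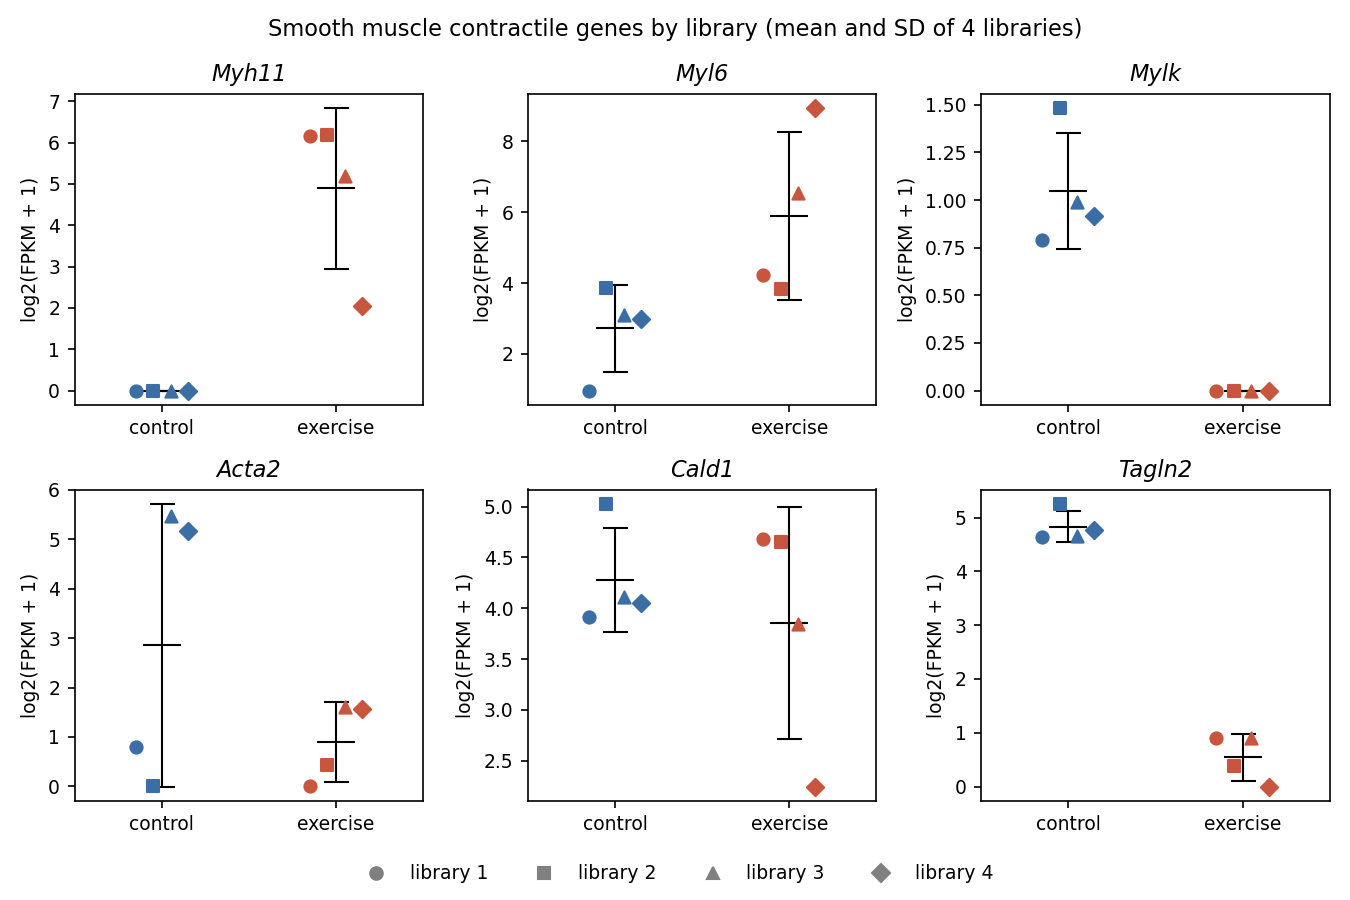
log2(FPKM + 1) of the 6 genes with more than 2 reads, in control (blue) and exercise (red) libraries, with marker shape giving the library number and the black lines the mean and SD of 4 libraries. The vertical axes differ between panels, Tagln2 is lower in every exercise library than in any control library, Mylk is listed at 0 in the exercise libraries (where 0 reads in exercise 4 allow up to 1.02 FPKM), and exercise 4 is the lowest exercise library for Myh11 and Cald1 and the highest for Myl6.

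Among the actins, Acta2 (chr19:34241090-34255336, minus strand), the smooth muscle α-actin, split the control libraries. Control 3 and 4 held 43.3 and 35.1 FPKM (301 and 249 reads), whereas control 1 held 0.734 FPKM (3 reads) and control 2 none. Exercise 1 to 4 held 0, 0.352, 2.03 and 1.95 FPKM, from 0, 1, 4 and 1 reads. All exercise libraries were therefore low, but so were control 1 and 2, and the groups overlapped. The means were 19.8 FPKM ± 22.7 in control and 1.08 FPKM ± 1.06 in exercise (SD, n = 4). The log2 difference of -1.96 (SE 1.28, 95% interval -4.83 to 0.90) did not pass in limma with Benjamini-Hochberg adjustment (adjusted p = 0.220) or in the exact two-sided permutation test (p = 0.343). Over the pooled reads, 553 of 10808426 in control and 6 of 4425867 in exercise fell on Acta2, a ratio of 37.7 (95% interval 17.2 to 103, for counting error only). All but 3 of the control reads came from control 3 and 4, and the ratio was 23.8 without control 3 and 82.5 without exercise 3. The level in control 4 relative to control 3 was 0.893 as a share of reads, above the 0.714 of genes that control 1 lacks. Without control 3, the log2 difference was -1.09. With array quality weights it was -4.38 and passed (adjusted p = 0.000646 in limma), the sole alternative in which Acta2 passed.

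Actg2 (chr6:83512905-83536265, minus strand), the smooth muscle γ-actin of gut and other visceral muscle, had no read in any library. A count of 0 allows 0.484 to 0.840 FPKM in control libraries, 1.15 to 1.74 in exercise 1 to 3 and 6.69 in exercise 4. Acta1, the skeletal muscle α-actin, was by contrast at 9438 to 30962 FPKM in all 8 libraries, and Actc1, the cardiac α-actin, at 5.12 to 1249 FPKM. These actins have closely related coding sequences, so reads could in principle be shared between them. The last 90 coding bases of the 4 genes, from the GENCODE M21 transcripts on GRCm38, are given 5′ to 3′ because they bear on whether reads of the highly abundant Acta1 could pass for those of Acta2, with capitals marking the 23 positions at which the 4 are not all alike.
Acta2: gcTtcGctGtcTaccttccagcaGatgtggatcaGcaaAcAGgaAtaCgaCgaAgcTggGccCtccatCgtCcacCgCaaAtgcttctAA
Actg2: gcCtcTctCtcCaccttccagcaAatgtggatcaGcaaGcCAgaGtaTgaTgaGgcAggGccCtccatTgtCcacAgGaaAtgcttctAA
Acta1: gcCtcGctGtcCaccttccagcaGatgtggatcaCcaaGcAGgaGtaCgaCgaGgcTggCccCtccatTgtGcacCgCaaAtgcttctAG
Actc1: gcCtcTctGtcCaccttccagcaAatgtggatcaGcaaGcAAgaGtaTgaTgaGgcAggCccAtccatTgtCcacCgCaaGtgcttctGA

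Acta2 and Acta1 differed at 10 of these 90 bases, and Acta2 and Actg2 at 16. Over the whole coding sequence of 1134 bases, Acta2 was 85.4% identical to Acta1 and 82.5% identical to Actc1. The longest run shared by Acta2 and Acta1 was 29 bases, and no window of 150 bases had fewer than 14 differences between them. Control 1, with the highest Acta1 (30962 FPKM), had 3 reads of Acta2, and control 3 and 4, with 16152 and 17249 FPKM of Acta1, had 301 and 249. Whether reads of Acta1 were counted for Acta2 was not tested.

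Among the actin-binding proteins, Cald1 (chr6:34598500-34775473, plus strand) encodes caldesmon, which restrains the motor on actin in smooth muscle and has a widely made non-muscle form. The table gives 1 value for the gene and does not separate these forms. Control 1 to 4 were at 14.0, 31.6, 16.2 and 15.6 FPKM, and exercise 1 to 4 at 24.7, 24.2, 13.4 and 3.75 FPKM. The groups overlapped, with exercise 1 and 2 above 3 of the 4 control libraries and exercise 3 and 4 below all of them. The means were 19.4 FPKM ± 8.23 and 16.5 FPKM ± 9.96 (SD, n = 4), and the log2 difference was -0.42 (SE 0.76, 95% interval -2.13 to 1.29, adjusted p = 0.663 in limma with Benjamini-Hochberg adjustment, exact two-sided permutation p = 0.629). Its sign changed to 0.12 without exercise 4, from which 13 of the reads came. As a share of reads, exercise 3 was at 0.318 of exercise 1, close to the 0.297 of Myh11. No read fell on the 3 genes that overlap Cald1 on the other strand.

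Cnn1 (chr9:22099216-22109630, plus strand), which encodes the smooth muscle calponin, had no read in any library. Tagln (chr9:45929619-45936058, minus strand), which encodes the smooth muscle transgelin SM22α, had none either. A count of 0 allows up to 0.478 FPKM of Cnn1 and up to 0.658 of Tagln in control libraries. In exercise 4 the same count allows 3.80 and 5.24 FPKM. As with the genes above that most cells use, these genes are listed at 0, and a 0 does not tell an unexpressed gene from one that was missed. Pcsk7, which overlaps Tagln on the opposite strand, had 50 reads in all.

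Tagln2 (chr1:172500047-172507380, plus strand), a transgelin made by many cell types, was the sole gene of those added by name that passed the test. Control 1 to 4 were at 23.9, 37.3, 24.4 and 26.3 FPKM, from 114, 238, 198 and 218 reads. Exercise 1 to 4 were at 0.862, 0.301, 0.866 and 0 FPKM, from 3, 1, 2 and 0 reads. Control libraries thus lay close together, and every exercise library was far below every control library, although 0 reads in exercise 4 allow up to 5.0 FPKM. Tagln2 fell from 28.0 FPKM ± 6.33 to 0.507 FPKM ± 0.430 (SD, n = 4), a difference of -4.29 on the log2(FPKM + 1) scale (SE 0.60, 95% interval -5.64 to -2.94). The adjusted p was 0.00151 in limma with Benjamini-Hochberg adjustment, and the exact two-sided permutation p was 0.0286, the smallest that 4 against 4 allow. Relative to the median of all genes, which itself lay at -1.42, the log2 difference of Tagln2 was -2.87. Over the pooled reads, 768 of 10808426 in control and 6 of 4425867 in exercise fell on it, a ratio of 52.4 (95% interval 24.0 to 143, for counting error only). Leaving out any 1 library, the log2 difference stayed between -4.41 and -4.11, with adjusted p from 0.000186 to 0.00989. With exercise 1 and 2 averaged and control 4 and exercise 3 left out, it was -4.52 and did not pass (adjusted p = 0.328), in a fit of 3 against 2 that called no gene. The pooled ratio was lowest without exercise 4 (38.7) and highest without exercise 1 (79.8).

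**Figure D3:**
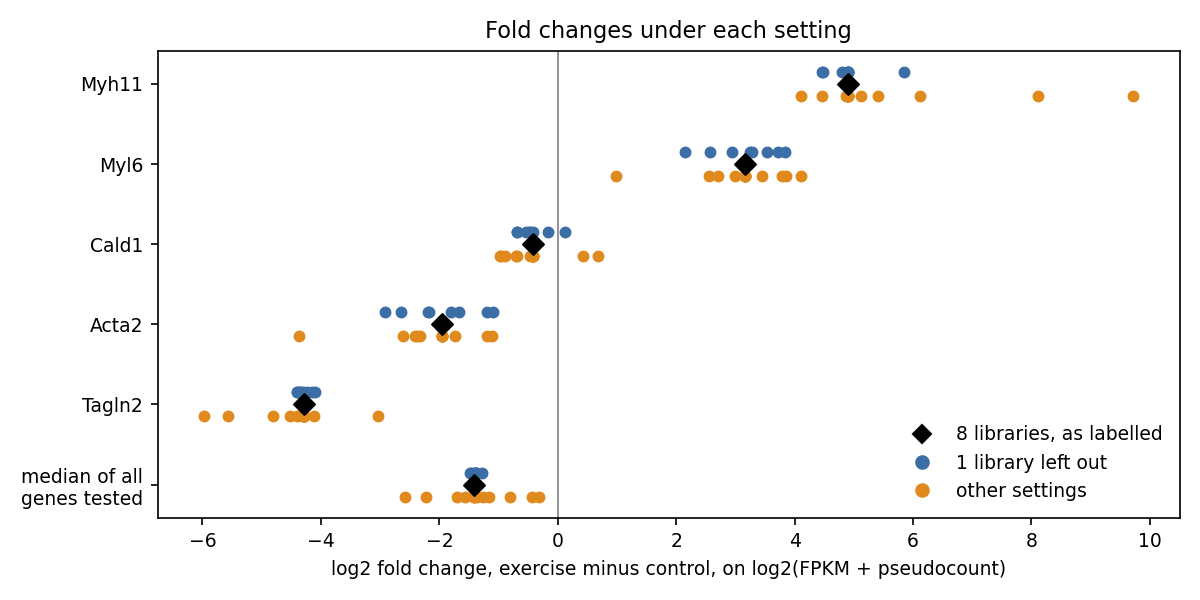
Log2 fold change (exercise minus control, horizontal axis) of the 5 genes past the limit on low levels and the median of all genes tested, for the 8 libraries (black diamond), with 1 library left out (blue) and under other settings (orange). Tagln2 stays between -5.97 and -3.03 and Myl6 above 0 throughout, while Cald1 crosses 0.

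Ordered by mean level in FPKM, the control libraries held Tagln2 (28.0), Acta2 (19.8), Cald1 (19.4), Myl6 (7.22), Mylk (1.10) and Myl9 (0.125). Of neighbours in this order, the library ranges as listed were apart for Cald1 over Myl6 and for Mylk over Myl9, and overlapped for the others. The order of Mylk and Myl9 is not settled at this depth, since 0 reads of Myl9 in control 1 allow up to 1.13 FPKM, above Mylk in control 1, 3 and 4. In exercise libraries the order was Myl6 (154), Myh11 (45.1), Cald1 (16.5), Acta2 (1.08) and Tagln2 (0.507), where the range of Cald1 lay above that of Acta2 and the other neighbours overlapped. The order within a group also differed from library to library. Tagln2 and Cald1 made up 59.2% and 34.8% of the summed FPKM of the 10 genes in control 1, whereas Acta2 took 46.7% in control 3. Myh11 took 61.9% and 65.2% in exercise 1 and 2, but 24.8% in exercise 3 and 0.63% in exercise 4. Myl6 went the other way, with 15.6%, 12.2%, 63.9% and 98.2%. The summed level was 40.3 to 92.7 FPKM in control libraries and 110 to 501 in exercise libraries.

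**Figure D4:**
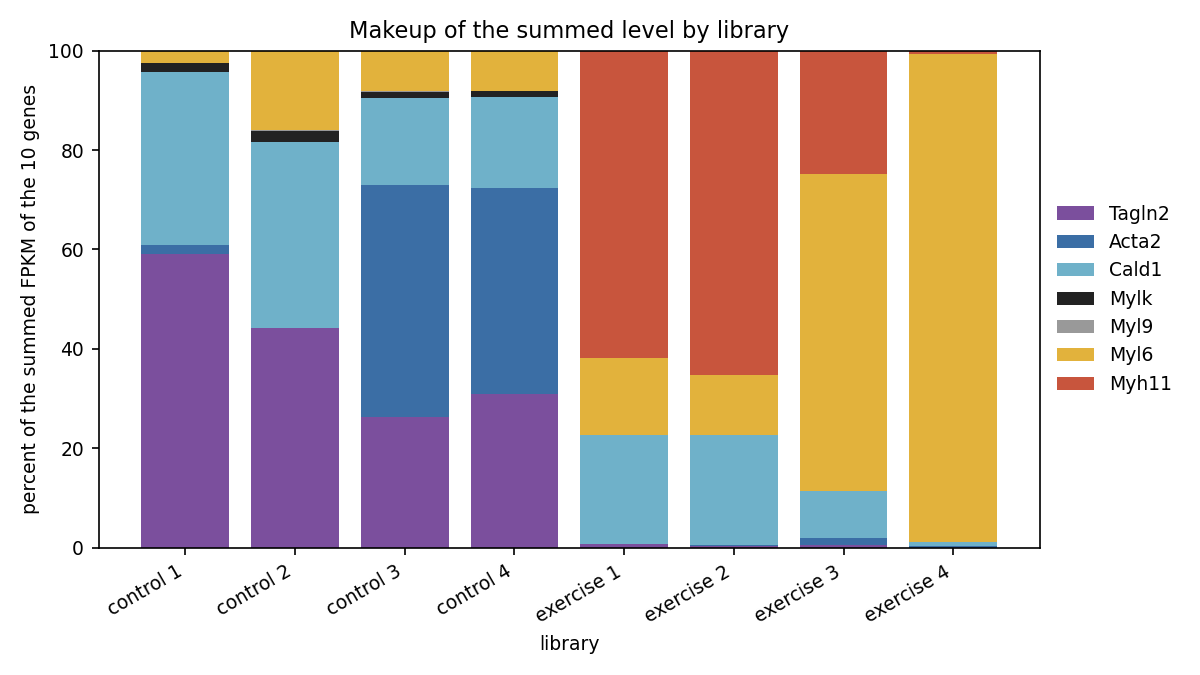
Share of the summed FPKM of the 10 genes taken by each gene (stacked colours, percent, vertical axis) in each library (horizontal axis). Tagln2, Cald1 and, in control 3 and 4, Acta2 fill most of the control bars, and Myl6 takes 15.9% of control 2. Myh11 fills most of exercise 1 and 2, and Myl6 fills 98.2% of exercise 4.

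The rest of the smooth muscle apparatus was read from 3 lists of 42 genes in all, of which 30 had reads, 21 were tested, 0 passed as higher and 2 as lower in exercise in limma with Benjamini-Hochberg adjustment. With exercise 1 and 2 averaged and control 4 and exercise 3 left out, no gene of these lists, of the relatives or of the marker lists passed. Over all genes tested, 8.78% passed as higher and 26.8% as lower. The median log2 difference of the 21 was -0.74, beside -1.42 over all genes tested. With quantile normalization these medians were 0.52 and -0.44, so the sign for the 21 depended on the scaling. Regulators of the motor (myosin phosphatase and ion channels among them) had 9 of 16 tested and none that passed. The list's genes without reads numbered 5, among them Prkg1, the cGMP-dependent kinase of smooth muscle, and Cacna1c, its main voltage-gated calcium channel.

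Structural partners had 10 of 16 tested, and both genes that passed came from this list. Synpo2, an actin-bundling protein of muscle Z-discs, was at 281, 278, 214 and 191 FPKM in control 1 to 4 and at 0.182, 0.382, 0.549 and 3.43 in exercise 1 to 4. All exercise libraries lay far below all control libraries, with a log2 difference of -7.03 (SE 0.69, adjusted p = 0.000448 in limma with Benjamini-Hochberg adjustment). Tpm2, the β-tropomyosin of smooth and skeletal muscle, fell from 145 FPKM ± 33.1 to 22.5 FPKM ± 4.13 (SD, n = 4, log2 difference -2.63, SE 0.59, adjusted p = 0.0119 in limma). Both genes are also made by skeletal muscle fibres, and 3 of the 10 tested markers of the myofibre list passed as lower in exercise, beside 26.8% of all genes tested. The part of the myofibre markers in the level of these genes was not tested. Smtn, which encodes smoothelin and had the highest mean FPKM of the list, was at 614, 5.67, 4.33 and 129 FPKM in control 1 to 4 and at 0, 0, 1800 and 9605 in exercise 1 to 4. Like Myl6 it was highest in exercise 4, and it had no read in exercise 1 and 2, where Myh11 was highest (log2 difference 0.65, adjusted p = 0.869 in limma). Its rank rested on exercise 3 and 4, and Tpm1, the α-tropomyosin gene, was above it in the other 6 libraries. Of the transcription factors that drive smooth muscle genes, Myocd, the defining co-activator, and Gata6 had no read, and 2 of 10 were tested without passing, Mef2c being the most abundant (18.6 and 32.3 FPKM on average, adjusted p = 0.741 in limma).

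Relatives of the 10 genes from non-muscle and striated muscle (17 listed, 11 tested) included 4 that passed as lower and 0 as higher, beside 26.8% and 8.78% of all genes tested, with a median of -1.89, beside -1.42. Myl12a, a regulatory light chain of non-muscle myosin, was at 141, 600, 337 and 249 FPKM in control 1 to 4 and at 23.4, 24.5, 12.7 and 16.3 in exercise 1 to 4. It fell by 3.90 on the log2 scale (SE 0.68, adjusted p = 0.00391 in limma with Benjamini-Hochberg adjustment). Myl12b, which encodes a nearly identical light chain, so that reads of the pair may be divided uncertainly, was at 8.65 to 30.6 FPKM in control libraries and had no read in exercise libraries (fitted log2 difference -3.80, adjusted p = 0.00310 in limma). The most abundant relative, Acta1, did not pass (20844 and 14109 FPKM on average, adjusted p = 0.198 in limma).

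Most of the mural marker list was not detected. Of its 16 genes, 12 had no read in any library, among them the defining markers Rgs5, Notch3, Cspg4, Kcnj8 and Abcc9. Its summed level was 57.9 to 261 FPKM in control and 76.4 to 752 in exercise libraries. Of the 4 genes of the list that were tested, 1 passed as higher and 0 as lower in exercise. Over all genes tested, 8.78% passed as higher and 26.8% as lower. The gene that passed was Vtn, which encodes vitronectin, at 2.36, 0, 0 and 0 FPKM in control 1 to 4 and at 533, 584, 305 and 34.2 in exercise 1 to 4 (log2 difference 7.47, SE 1.01, adjusted p = 0.00123 in limma with Benjamini-Hochberg adjustment). Like Myh11, Vtn was highest in exercise 1 and 2 and, among exercise libraries, lowest in exercise 4. Without Vtn the mural sum was 55.6 to 261 FPKM in control and 42.2 to 181 in exercise libraries, which overlapped. Of cell types that the sort was gated against, through CD45 and CD11b for immune cells and CD31 for endothelial cells, none of the 12 immune genes had a read, and 7 of 10 endothelial genes had none. The endothelial sum was 0.0925 to 2994 FPKM in control and 4.42 to 26.2 in exercise libraries. It was carried by Kdr in control 2 to 4 (log2 difference -7.82, adjusted p = 0.0281 in limma) and by Tek in the exercise libraries (3.92, adjusted p = 0.00395 in limma), receptor genes that moved in opposite directions. Kdr and Tek were the only 2 endothelial genes tested, beside 26.8% of all genes tested that passed as lower and 8.78% as higher. The Schwann sum was 1.55 to 22.1 and 1.86 to 9.10 FPKM. All 12 markers of fibro-adipogenic progenitors (FAPs) and fibroblasts, which the Sca1 gate is meant to remove in part, had reads, with sums of 3059 to 4568 and 3620 to 9599 FPKM, and the 7 tenocyte markers summed to 628 to 1143 and 446 to 1706 FPKM. The SC list summed to 23.4 to 70.9 and 51.5 to 125 FPKM, and the myofibre list to 34202 to 70275 and 16261 to 59111 FPKM. Whether any of these lists bears on Myh11, Myl6 or Tagln2 was not tested.

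**Figure D5:**
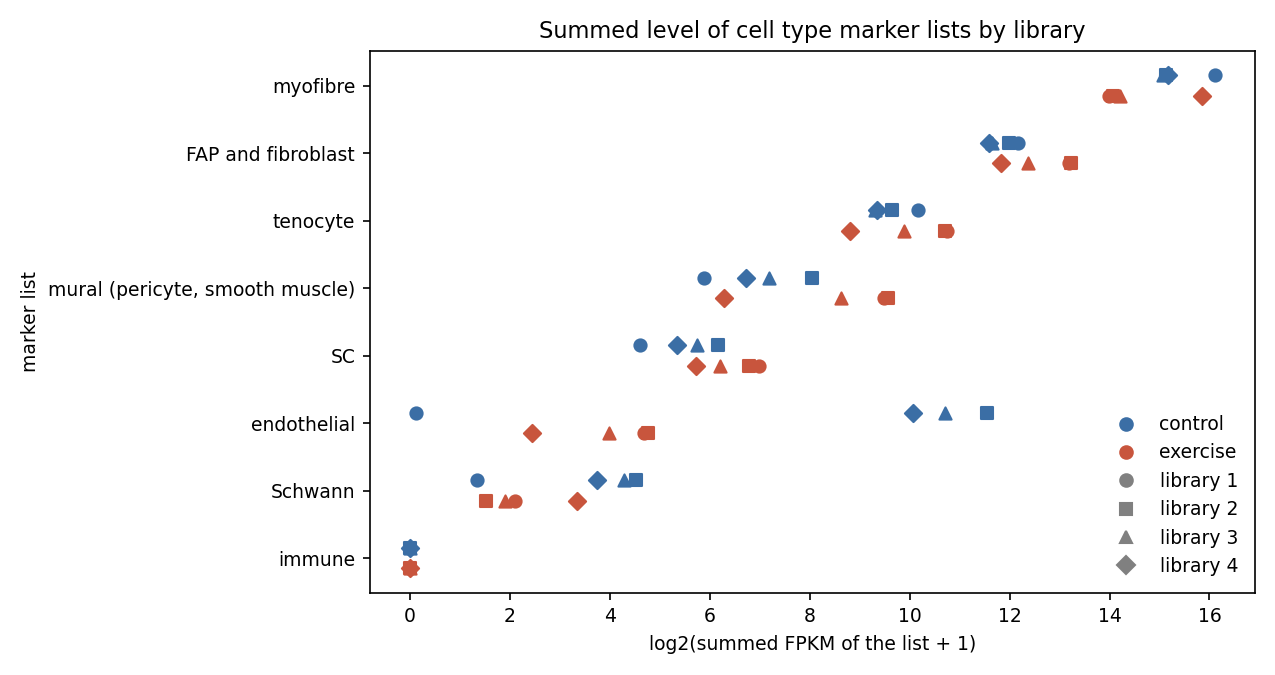
Summed FPKM of each cell type marker list, as log2(sum + 1) on the horizontal axis, in the 4 control (blue) and 4 exercise (red) libraries, with marker shape giving the library number. The myofibre list is the highest in all libraries, the immune list is at 0, and the mural sum is higher in exercise 1 to 3 than in any control library, while exercise 4, at 76.4 FPKM, lies within the control range and, without Vtn, the mural sums of the groups overlap.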

How the data were processed

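RNA-seq of sorted SCs from 4 control and 4 exercise libraries was analysed. According to the methods and the submitters' processing notes, the authors aligned reads to mm10 with Bowtie 0.12.9, counted them with HTSeq, computed FPKM with Cufflinks 2.1.1 and tested genes with DESeq2. The table that the authors deposited holds FPKM values and gene lengths. Multiplied by gene length, all nonzero values were whole multiples of 1 step per library (within 0.001), which gave the reads. Of the gene identifiers, 99.7% are in GENCODE M21, and 95.2% of these have the same coordinates. Coordinates are those of the table.

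Rows sharing a symbol were summed. The 4328 genes whose mean level reached 1 FPKM entered a fit of log2(FPKM + 1) by limma 3.58.1 under R 4.3.3 (trend, Benjamini-Hochberg adjustment), a scale that understates the change of low genes. Single genes were compared by exact two-sided permutation over 70 assignments, in Python 3.11.15. Intervals on pooled reads and the 3 reads that a count of 0 allows cover counting error alone, as reads copied by amplification are not separate molecules. The fit was tested on simulated data with independent libraries of equal spread, which does not cover the differences and likenesses between the libraries here.

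The 10 genes and all lists were chosen with earlier results of these data known. The text names the 10 genes, up to 2 largest rises and falls that passed and the most abundant gene of each list, and the 3 genes nearest to Myh11 and to Mylk, though not all of the marker lists' genes, and a result that this rule covers is not reported here. Prkg1, Cacna1c, Myocd, Gata6, Actc1, Tpm1, Gapdh, Polr2b and the marker genes given as without reads or as overlapping were named after their values were seen. The alternatives were another pseudocount (0.1), other filters, scalings and weights, voom, the replicate block, and libraries averaged or left out. Scaling to read totals was chosen after seeing the data.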

Additional observations from a re-analysis of the deposited data

How the results depend on the processing

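The count of 1541 genes called was 840 with no filter, 941 with quantile normalization (566 higher, 375 lower, against 380 and 1161), 2978 with array quality weights and 596 with exercise 1 and 2 averaged, and 527 to 1899 with 1 library left out, lowest without exercise 3 and highest without control 1. Without control 2, 3 or 4 it was 1003, 804 or 569, and without exercise 1 or 2 it was 578 or 599. With control 4 and exercise 3 also left out, limma with Benjamini-Hochberg adjustment called 0 genes (469 at an unadjusted p under 0.05), 0 of the 10 genes, 0 of the apparatus lists and 0 relatives. Of the genes added by name, the 1 called became 2 with quantile normalization (Myl6 higher, 4.10), 2 with libraries scaled to read totals (Myl6 higher) and 2 with array quality weights (Acta2 lower, -4.38), and stayed 1 with any 1 library left out. The 2 called genes of the apparatus lists became 4 with a pseudocount of 0.1, 4 with at least 1 FPKM in 4 libraries, 1 with quantile normalization and 13 with array quality weights (3 higher, 10 lower). Their number was 2 to 4 with 1 library left out (4 without control 1 or control 2). The 4 relatives became 2 with quantile normalization and 11 with array quality weights (2 higher, 9 lower). They were 3 to 6 with 1 library left out (6 without exercise 4, with 1 higher and 5 lower). Cald1, never called, turned to 0.69 with quantile normalization, 0.42 with array quality weights and 0.12 without exercise 4 (range -0.69 to 0.12 with 1 library left out). Tagln2 was called in 20 of 21 alternatives, Myl6 in 2 and Acta2 in 1. The median of all genes moved from -1.42 to -0.44 with quantile normalization, -0.32 with no filter and -0.80 with at least 1 FPKM in 4 libraries. It moved to -2.22 with voom and to -2.59 with a pseudocount of 0.1. The causes of these shifts were not tested.

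Libraries with the same number were not treated as paired, and the labels do not say whether they were. The correlations of their deviations were -0.0169 to 0.0393 over 4328 genes, and 3 of the 4 numbers matched best with their own. These values do not settle whether the libraries were paired. With the replicate block, 1059 genes were called, 1 of the genes added by name (Tagln2, adjusted p = 0.0144 in limma), 1 of the apparatus lists and 4 relatives. Low reads limit Mylk, Myl9, Tagln, Cnn1 and Actg2 most, and a read in exercise 4 is worth the most FPKM.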
